A study of Homo sapiens with 16 samples.

Results

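GADD45A, GADD45B, GDF15, MDM2, PLK2, PLK3, BTG1, BTG2 and TP53INP1 are 9 genes tied to growth arrest and to p53. They were chosen by name, as rows matched from Entrez identifier to symbol, with earlier results of these data known. Their counts beside the shares of all genes are therefore descriptions and no test. All 9 had a row in both deposited tables, with 13559 genes listed for the first experiment and 14024 for the second, and none was removed by a filter on low values. RNA was sequenced from LN229, a line of human glioblastoma cells, in 16 libraries that make up 8 groups of 2. The first experiment held untreated cells in regular culture and in ischemic culture, a combination of low nutrients and hypoxia. The second held both cultures with DMSO (the vehicle), with VX745 (an inhibitor of the kinase p38α) or with MK25 (an inhibitor of MK2, the kinase that p38α activates). All groups came from this single line, and no group was genetically altered. The labels number the replicates without saying whether they were separate cultures, so the p-values measure only the spread between these libraries, which may be technical.

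The targets of the p53 pathway, which stress switches on, halt the cell cycle, repair DNA, slow growth or kill the cell. Several of these 9 genes also answer to stress without p53, mainly through ATF4, a factor made when translation is throttled, and its partner DDIT3 (CHOP). GADD45 proteins bind and activate MAP3K4, a kinase upstream of p38, and p38 with MK2 in turn is known to control the stability of messenger RNAs that carry AU-rich stretches in the 3′ untranslated region (3′ UTR).

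Between 20122017 and 37562668 reads per library lay on listed genes, and the 9 genes had between 81 reads (TP53INP1) and 18128 reads (GDF15) in a library, all above 3 reads, taken as the floor of detection. Of 18 markers of cell types, 9 were listed. The tumor markers VIM, CD44, NES, SOX2 and S100B were detected, with VIM at a log2 value of 11.08 or more in each library, while OLIG2 (39 to 266 reads) and GFAP (21 to 55 reads) were low and CHI3L1 had no row. The immune markers PTPRC, AIF1 and CD3E, the endothelial markers PECAM1, VWF and CDH5 and the epithelial markers EPCAM and CDH1 had no row, whereas CD68 and KRT18 had at least 546 and 2801 reads. In bulk RNA, a change in the mix of cells and a change in RNA per cell cannot be told apart. A gene was called where limma, fitted to the deposited log2 values of all genes, put the adjusted p below 0.05 and the cultures differed by a factor of 2 or more, or the treatments by 1.5 or more. Interactions of treatment and culture were called at any size.

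Ischemic culture raised GDF15, GADD45B and BTG1 in untreated cells, and in the presence of DMSO it raised these 3 along with GADD45A and PLK3 and lowered PLK2. MDM2, BTG2 and TP53INP1 passed the threshold in neither setting. In untreated cells 3 of the 9 genes rose and 0 fell, beside 11.3% of all genes that rose and 9.1% that fell. With DMSO, 5 rose and 1 fell, beside 9.03% and 8.11%. The median log2 fold change of the 9 was 0.86 in untreated cells and 1.13 with DMSO, and that of all genes was −0.01 in both. The plot of levels by library shows each of these differences.

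**Figure D1:**
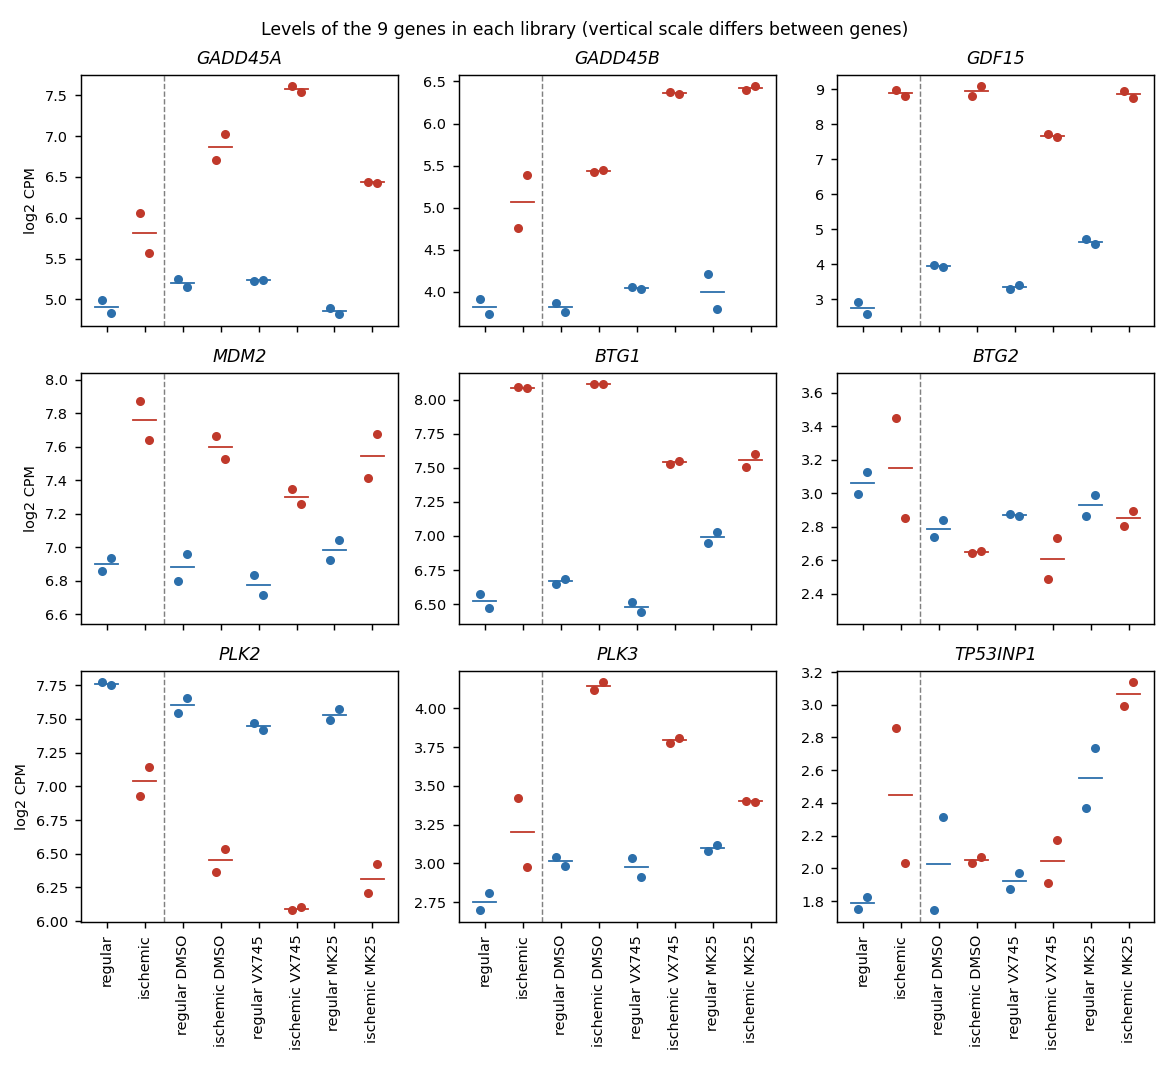
Level of each gene (vertical axis, log2 CPM) in every library of the 8 groups (horizontal axis), with regular culture in blue, ischemic culture in red, a short line at each group mean, and a dashed line between the 2 separately normalized experiments. GDF15 lies at 8.75 or above in the ischemic libraries without VX745 and at 4.72 or below in all regular libraries, and PLK2 is the gene whose ischemic libraries all lie below its regular ones.

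GDF15, a secreted hormone of the TGF-β superfamily that suppresses appetite and marks cell stress, had the largest change of the 9. Its log2 values in untreated cells were 2.91 and 2.58 in regular culture and 8.97 and 8.80 in ischemic culture, a 70.6-fold rise (log2 fold change 6.14, standard error 0.11, adjusted p = 4.28e-13). With DMSO the regular libraries stood at 3.99 and 3.92 and the ischemic libraries at 8.80 and 9.09, a 31.7-fold rise (log2 fold change 4.99, standard error 0.09, adjusted p = 5.33e-18). In both experiments the ischemic libraries lay far above the regular ones, without overlap. Per kilobase of its transcript, GDF15 went from 12.9 CPM per kb in regular culture with DMSO, where PLK2, GADD45A, BTG1 and MDM2 stood higher, to 411 CPM per kb in ischemic culture, the highest of the 9. GDF15 lies on chromosome 19 (GRCh38, 18386158 to 18389176, plus strand) in 2 exons. The stretch from 250 bases before to 50 bases after its start (RefSeq, GRCh38.p14, chr19:18385908-18386207, plus strand) is shown because this gene moved most, and none of the 5 motifs searched was found in it.
GDF15 promoter: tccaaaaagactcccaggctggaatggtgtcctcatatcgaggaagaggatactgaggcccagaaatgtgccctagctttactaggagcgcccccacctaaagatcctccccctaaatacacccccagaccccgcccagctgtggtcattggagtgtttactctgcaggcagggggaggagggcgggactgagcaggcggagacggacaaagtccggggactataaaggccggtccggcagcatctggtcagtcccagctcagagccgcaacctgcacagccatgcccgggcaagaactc

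The motifs were searched on both strands, and matches are given for 7 genes, GADD45B, GDF15, MDM2, PLK2, PLK3, BTG1 and BTG2. GADD45A and TP53INP1 are not covered. They were TGACGTCA (cyclic AMP response element, in 1.85% of 35116 RefSeq windows of the same length), TGATGCAA (C/EBP-ATF composite element, 0.866%), ACGTG (core of the hypoxia response element, 21.4%), TGAGTCA (AP-1 site, 4.95%) and the p53 response element with at most 2 mismatches in its 20 letters (0.649%). GDF15, PLK3, BTG1 and BTG2 had no match, and PLK2 had 1, an ACGTG. The p53 element was searched with no spacer between its half-sites, so an element with a spacer or with more mismatches was not counted. A match here is a description of letters and no evidence of binding.

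The GADD45 genes encode small proteins that bind PCNA and cyclin-dependent kinase 1 as well as MAP3K4. GADD45B (chromosome 19, 2476127 to 2478257, 4 exons) had log2 values of 3.91 and 3.73 in regular and 4.75 and 5.39 in ischemic untreated cells, a 2.37-fold rise (log2 fold change 1.25, standard error 0.16, adjusted p = 2.11e-05). The ischemic replicates were apart by more than the regular ones, and without ischemic replicate 2 the log2 fold change was 0.93, under the threshold. With DMSO the values were 3.87 and 3.76 in regular and 5.43 and 5.44 in ischemic culture, a 3.08-fold rise (log2 fold change 1.62, standard error 0.10, adjusted p = 1.22e-10). The promoter of GADD45B (RefSeq, GRCh38.p14, chr19:2475877-2476176, plus strand) is shown for its CACGTG, in capitals, which holds ACGTG on both strands, beginning 168 bases before the start.
GADD45B promoter: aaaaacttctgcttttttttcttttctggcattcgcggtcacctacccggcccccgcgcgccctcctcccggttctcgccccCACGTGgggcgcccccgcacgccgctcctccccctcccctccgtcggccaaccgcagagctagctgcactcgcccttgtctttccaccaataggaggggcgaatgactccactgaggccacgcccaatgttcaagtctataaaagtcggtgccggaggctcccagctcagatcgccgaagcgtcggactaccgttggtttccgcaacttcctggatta

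GADD45A (chromosome 1, 67685201 to 67688334, 4 exons) stood at 4.99 and 4.83 in regular and 6.06 and 5.56 in ischemic untreated cells, a 1.87-fold difference without overlap (log2 fold change 0.90, standard error 0.13, adjusted p = 5.48e-05) that was under the threshold of 2. Without ischemic replicate 2 it was 1.15. With DMSO its values were 5.25 and 5.15 in regular and 6.71 and 7.03 in ischemic culture, a 3.18-fold rise (log2 fold change 1.67, standard error 0.08, adjusted p = 6.28e-12). The experiments were normalized separately, and the difference between the responses of untreated cells and of cells with DMSO was not tested.

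BTG1 and BTG2 belong to a family that restrains proliferation and recruits the CCR4-NOT complex, which shortens poly(A) tails. BTG1 (chromosome 12, 92140278 to 92145846, minus strand) stood at 6.57 and 6.47 in regular and 8.09 and 8.08 in ischemic untreated cells, a 2.96-fold rise (log2 fold change 1.57, standard error 0.07, adjusted p = 1.14e-09). With DMSO it stood at 6.65 and 6.69 in regular culture and at 8.11 in both ischemic libraries, a 2.72-fold rise (log2 fold change 1.45, standard error 0.06, adjusted p = 2.45e-13). Its replicates were close together in both experiments. BTG2 was low throughout, between 2.49 and 3.45 in the 16 libraries (151 to 300 reads). Its log2 fold change was 0.09 in untreated cells (95% interval −0.30 to 0.47) and −0.14 with DMSO (95% interval −0.40 to 0.12), so that a change of 1.5-fold or more lay outside both intervals. The gene BTG1 overlaps LINC01619, which also had a row, and the library kit does not mark strand, so reads of the shared bases cannot be assigned to one or the other.

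PLK2 and PLK3 are Polo-like kinases of the stress response, and their changes in ischemic culture had opposite signs. PLK2 (chromosome 5, 58453982 to 58460086, minus strand, 14 exons) had log2 values of 7.77 and 7.75 in regular and 6.93 and 7.15 in ischemic untreated cells, which was lower without overlap but under the threshold (log2 fold change −0.72, standard error 0.08, adjusted p = 3.96e-06). With DMSO the values were 7.55 and 7.65 in regular and 6.37 and 6.53 in ischemic culture, a 2.22-fold fall (log2 fold change −1.15, standard error 0.07, adjusted p = 2.21e-10). Per kilobase, PLK2 was the most abundant of the 9 in regular culture with DMSO (69.7 CPM per kb) and the fifth in ischemic culture (31.4 CPM per kb), close to GADD45B (31.6 CPM per kb). PLK3 (chromosome 1, 44800377 to 44805990, plus strand, 15 exons) had 2.70 and 2.81 in regular and 3.42 and 2.98 in ischemic untreated cells (log2 fold change 0.45, standard error 0.16, adjusted p = 0.0241). With DMSO it had 3.04 and 2.99 in regular and 4.12 and 4.17 in ischemic culture, a 2.19-fold rise (log2 fold change 1.13, standard error 0.10, adjusted p = 1.29e-08). Scaled to the total of reads on listed genes, the rise of PLK3 was 0.90 on the log2 scale and under the threshold.

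MDM2, the ubiquitin ligase that marks p53 for degradation and is itself a p53 target, stood at 6.86 and 6.94 in regular and 7.87 and 7.64 in ischemic untreated cells. The difference of 1.82-fold (log2 fold change 0.86, standard error 0.08, adjusted p = 1.18e-06) left no overlap but missed the threshold of 2, as did that with DMSO (log2 fold change 0.72, standard error 0.08, adjusted p = 5.79e-07). MDM2 lies on chromosome 12 (68808172 to 68850686, plus strand, 11 exons in its MANE Select transcript) and overlaps the listed gene CPM. The window around an inner start of MDM2 (RefSeq, GRCh38.p14, chr12:68808767-68809066, plus strand) is shown for a p53 response element, with 2 mismatches, at 68808923 to 68808942. Of the 7 genes covered, which leave out GADD45A and TP53INP1, MDM2 alone held such an element in this search, which allowed no spacer. A further MDM2 window, which overlaps the one shown, holds the same element. The capitals mark this element and, before it, TGACTCA, an AP-1 site on the minus strand, and the element overlaps an ACGTG on the minus strand.
MDM2 inner promoter: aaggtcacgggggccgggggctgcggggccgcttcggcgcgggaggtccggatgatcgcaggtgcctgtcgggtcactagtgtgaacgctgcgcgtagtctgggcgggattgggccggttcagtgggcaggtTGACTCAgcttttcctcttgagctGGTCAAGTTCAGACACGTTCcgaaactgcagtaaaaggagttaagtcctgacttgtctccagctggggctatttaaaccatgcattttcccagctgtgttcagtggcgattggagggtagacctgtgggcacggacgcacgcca

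TP53INP1, whose protein acts in p53-driven cell death and in autophagy, was the least abundant of the 9 genes per kilobase in both cultures (0.728 and 0.739 CPM per kb with DMSO). Its log2 values were 1.75 and 1.82 in regular and 2.86 and 2.03 in ischemic untreated cells (log2 fold change 0.66, standard error 0.23, adjusted p = 0.0235), and it was 1.07 without ischemic replicate 2. With DMSO its regular libraries, at 1.74 and 2.31, lay on both sides of its ischemic libraries, at 2.04 and 2.07 (log2 fold change 0.02, standard error 0.18, adjusted p = 0.918). TP53INP1 overlaps the listed gene NDUFAF6. Ischemic replicate 1 of the untreated cells was above replicate 2 for each of the 9 genes except GADD45B and PLK2, with the widest gap for TP53INP1.

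The response to ischemic culture was also measured in the presence of each inhibitor, and whether it differed from that with DMSO is given with the interactions. With VX745, 4 of the 9 genes rose and 1 fell between the cultures, beside 9.28% of all genes that rose and 5.21% that fell. With MK25, 3 rose and 1 fell, beside 8.56% and 5.34%. GDF15 and GADD45B rose in all 4 settings and PLK2 fell in the 3 settings of the second experiment, while MDM2, BTG2 and TP53INP1 were called in none. The log2 fold change of GADD45A was 1.67 with DMSO, 2.34 with VX745 and 1.57 with MK25, and that of GADD45B was 1.62, 2.32 and 2.43. The log2 fold change of GDF15 was 4.99 with DMSO, 4.31 with VX745 and 4.20 with MK25, and that of BTG1 was 1.45, 1.06 and 0.57, the last under the threshold. PLK3 had 1.13 with DMSO, 0.82 with VX745 and 0.30 with MK25, and was called with DMSO alone. PLK2 had −1.15, −1.36 and −1.22. Scaled to the total of reads on listed genes, BTG1 with VX745 had 0.95 and was no longer called.

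**Figure D2:**
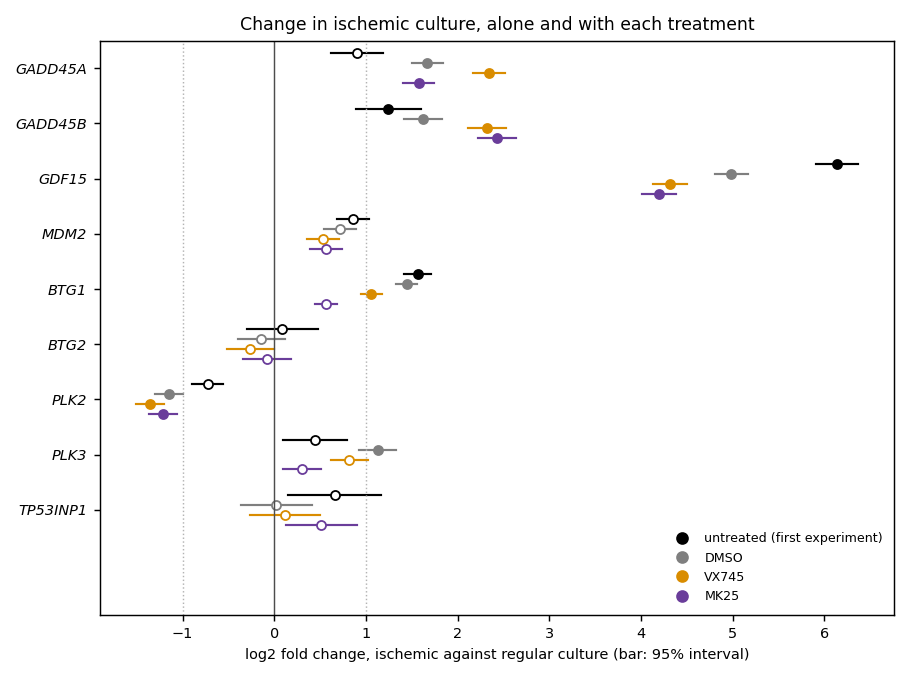
Log2 fold change between ischemic and regular culture (horizontal axis) for each gene (vertical axis) in untreated cells and with DMSO, VX745 or MK25. Bars are 95% intervals, filled points passed the threshold and dotted lines mark a 2-fold change. GDF15 lies furthest to the right in all 4 settings, and GADD45A and GADD45B lie further right with VX745 than with DMSO.

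In ischemic culture, VX745 raised GADD45A and GADD45B and lowered GDF15. Beside 4.35% of all genes that rose and 0.906% that fell, 2 of the 9 rose and 1 fell, with a median log2 fold change of −0.29 against 0.00 for all genes. GADD45B went from 5.43 and 5.44 with DMSO to 6.37 and 6.35 with VX745, a 1.90-fold rise (log2 fold change 0.92, standard error 0.10, adjusted p = 4.28e-06). GADD45A went from 6.71 and 7.03 to 7.61 and 7.54, a 1.63-fold rise (log2 fold change 0.71, standard error 0.08, adjusted p = 1.09e-05). The DMSO replicates of GADD45A were the less close, and without ischemic DMSO replicate 1 the value was 0.55 and under the threshold of 1.5-fold. GDF15 went from 8.80 and 9.09 to 7.71 and 7.63, a 2.42-fold fall (log2 fold change −1.27, standard error 0.09, adjusted p = 5.05e-08). For these 3 genes the libraries with VX745 and with DMSO did not overlap, and neither did those of BTG1, PLK2, PLK3 and MDM2. The share of all genes without overlap was not computed, so this does not set the called genes apart. BTG1 went from 8.11 in both libraries to 7.53 and 7.55, a 1.49-fold difference just under the threshold (log2 fold change −0.57, standard error 0.06, adjusted p = 1.75e-06), which libraries centred on their median placed past it at −0.59. PLK2 (−0.36, adjusted p = 0.00148), PLK3 (−0.35, adjusted p = 0.0119) and MDM2 (−0.29, adjusted p = 0.0133) had smaller differences in limma, and BTG2 (−0.04) and TP53INP1 (−0.01) had adjusted p of 0.842 and 0.979.

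In ischemic culture, MK25 raised GADD45B and TP53INP1 and lowered PLK3. Beside 7.02% of all genes that rose and 2.65% that fell, 2 of the 9 rose and 1 fell, with a median log2 fold change of −0.10 against 0.00 for all genes. GADD45B stood at 6.40 and 6.45 with MK25, a 1.98-fold rise over DMSO (log2 fold change 0.99, standard error 0.10, adjusted p = 7.26e-07). TP53INP1 went from 2.04 and 2.07 to 2.99 and 3.14, that is from 99 and 121 reads to 291 and 308 (log2 fold change 1.02, standard error 0.18, adjusted p = 0.0003). PLK3 went from 4.12 and 4.17 to 3.40 in both libraries, a 1.67-fold fall (log2 fold change −0.74, standard error 0.10, adjusted p = 1.43e-05). For each of these genes all libraries with MK25 lay on one side of those with DMSO, as they did for GADD45A, BTG1 and BTG2. The share of all genes for which this held was not computed. BTG1, at 7.50 and 7.60, was 1.47-fold lower and under the threshold (log2 fold change −0.56, adjusted p = 7.18e-07), and it was past it at −0.61 without ischemic MK25 replicate 2. GADD45A, at 6.43 in both libraries, was also lower and under the threshold (log2 fold change −0.44, standard error 0.08, adjusted p = 0.000376), and past it at −0.60 without ischemic DMSO replicate 1. GDF15, at 8.94 and 8.75, overlapped its DMSO libraries (log2 fold change −0.10, 95% interval −0.28 to 0.09). The values of MDM2, PLK2 and BTG2 were −0.05, −0.13 and 0.20, with adjusted p of 0.665, 0.149 and 0.203. The comparisons of VX745 and of MK25 share the same DMSO libraries, so they are not independent of each other.

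Compared directly in ischemic culture, MK25 and VX745 differed in GADD45A, GDF15 and TP53INP1. GADD45A was 2.21-fold lower with MK25 (log2 fold change −1.14, standard error 0.08, adjusted p = 2.09e-08). GDF15 was 2.26-fold higher with MK25 (log2 fold change 1.18, standard error 0.09, adjusted p = 3.67e-08), and TP53INP1 was 2.03-fold higher (log2 fold change 1.02, standard error 0.18, adjusted p = 0.000657). Thus 2 of the 9 genes were higher and 1 was lower, beside 1.75% and 2.2% of all genes. GADD45B and BTG1, by contrast, had differences of 0.06 (95% interval −0.14 to 0.27) and 0.02 (95% interval −0.10 to 0.13).

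**Figure D3:**
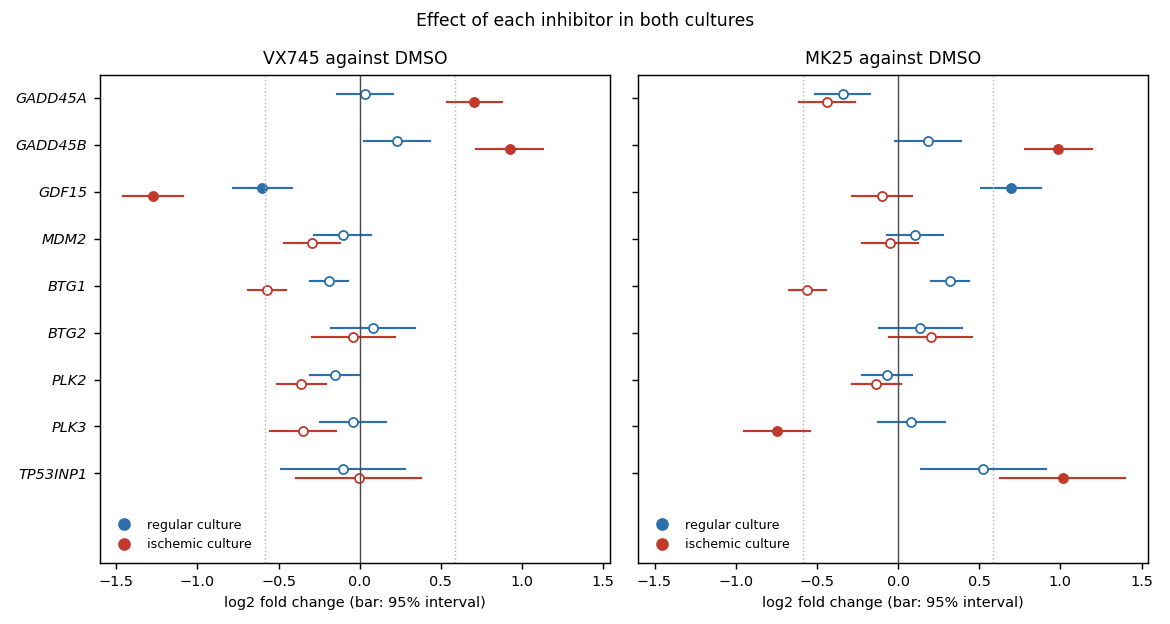
Log2 fold change against DMSO (horizontal axis) of each gene (vertical axis) with VX745 (left) and MK25 (right), in regular culture (blue) and ischemic culture (red). Bars are 95% intervals, filled points passed the threshold and dotted lines mark a 1.5-fold change. The red and blue bars of GADD45B do not overlap under either inhibitor, and GDF15 lies left of 0 with VX745 in both cultures.

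In regular culture GDF15 alone among the 9 passed the threshold with an inhibitor, and in opposite directions with each. With VX745 it went from 3.99 and 3.92 to 3.30 and 3.42, a 1.52-fold fall (log2 fold change −0.60, standard error 0.09, adjusted p = 0.00422), so that 0 of the 9 rose and 1 fell, beside 0.0642% and 0.0357% of all genes. This call was lost without regular DMSO replicate 1 (−0.57), without regular VX745 replicate 1 (−0.54), without a trend of the variance (adjusted p = 0.163), with voom on the recovered reads (adjusted p = 0.130) and with only the groups of the comparison (adjusted p = 0.0716). With MK25 it went to 4.72 and 4.58, a 1.62-fold rise (log2 fold change 0.69, standard error 0.09, adjusted p = 4.08e-05), so that 1 of the 9 rose and 0 fell, beside 1.88% and 0.606%. TP53INP1 (0.52, adjusted p = 0.0690), GADD45A (−0.34, adjusted p = 0.0104) and BTG1 (0.32, adjusted p = 0.000918) did not pass both criteria with MK25. Without regular DMSO replicate 2, TP53INP1 with MK25 was past them at 0.81.

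The interaction asks whether an inhibitor acted differently in the cultures. For VX745 it was called for 4 of the 9 genes, beside 11.8% of all genes, with values of 0.67 for GADD45A, 0.70 for GADD45B, −0.67 for GDF15 and −0.39 for BTG1 on the log2 scale. For MK25 it was called for 4 of the 9, beside 24.4% of all genes, with values of 0.80 for GADD45B, −0.79 for GDF15, −0.83 for PLK3 and −0.88 for BTG1. The effect of both inhibitors on GADD45B was thus larger in ischemic culture. In regular culture it was not called, at 0.23 with VX745 and 0.18 with MK25 (adjusted p = 0.283 and 0.233 in limma). The MK25 effect on BTG1 was 0.32 in regular culture and −0.56 in ischemic culture, and that on GDF15 was 0.69 and −0.10. The interactions of TP53INP1 (0.10 and 0.49) were not called (adjusted p = 0.854 and 0.180), although that with MK25 was past the threshold at 0.78 without regular DMSO replicate 1.

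Ordered over the 6 groups of the second experiment, GADD45A was highest with VX745 in ischemic culture and lowest with MK25 in regular culture, and neighbouring groups in the order overlapped in 1 place, between regular VX745 and regular DMSO. GDF15 was highest in ischemic DMSO and ischemic MK25, which overlapped, followed without overlap by ischemic VX745, regular MK25, regular DMSO and regular VX745. PLK3 stood in the order ischemic DMSO, ischemic VX745, ischemic MK25 and then the regular groups, of which DMSO and VX745 overlapped. TP53INP1 was highest in ischemic MK25 and next in regular MK25, and the other 4 groups overlapped from neighbour to neighbour. BTG2 had a single gap, between regular DMSO and ischemic DMSO.

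Over the 12 libraries of that experiment, the genes with the most similar profile among the 10053 genes whose mean log2 value was 3 or more were JUN (r = 0.995) and LIMCH1 (0.991) for GADD45A, TECPR1 and DDX60 (both 0.993) for GADD45B, and SLC43A3 (0.996) and SLC2A1 (0.995) for GDF15. BTG1 was most like SMAD2 (0.990) and NAT9 (0.987), PLK3 like S100A10 (0.993) and HIBADH (0.989), PLK2 like RBMXL1 and TOR1AIP2 (both 0.993), and MDM2 like PPIL3 (0.987) and SEL1L (0.984). The closest profiles of TP53INP1, FMN1 and TRIM47, had 0.931 and 0.929, and those of BTG2, CWC15 and RNPC3, had 0.909 and 0.900. Among the members, GADD45A and GADD45B had r = 0.896, GDF15 and MDM2 0.956, and PLK2 and GADD45B −0.974. These are Pearson correlations given as a description, over libraries that share 6 groups. The ischemic groups lay apart from the regular ones for each member except BTG2 and TP53INP1, and this difference enters the correlations. The share of all genes that lay apart in this way was not computed.

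The 3′ UTRs were searched for the AU-rich words ATTTA and TTATTTATT in 1 transcript per gene (MANE Select). Of 12599 listed genes, 74.0% held ATTTA and 9.94% held TTATTTATT. GDF15 held 5 ATTTA in 241 bases (20.7 per kb, beside 2.32 per kb over all these genes), PLK3 3 in 312 and PLK2 2 in 601. GADD45A held 2 in 560, MDM2 23 in 5695 and TP53INP1 14 in 4507. BTG1 held 5 in 3802 (1.32 per kb) and BTG2 2 in 2164 (0.924 per kb), while GADD45B held 0 in 656. The nonamer TTATTTATT was found in GDF15, MDM2, PLK2, PLK3 and TP53INP1 and not in GADD45A, GADD45B, BTG1 and BTG2. The sites of 4 of these 5 genes are shown, with the nonamer in capitals, as examples of the word in its context, and that of TP53INP1 is not printed.
GDF15 site, base 129 of the 3′ UTR: tataagtctgTTATTTATTattaatttat
MDM2 site, base 4923: tattttatttTTATTTATTttttgagacg
PLK2 site, base 499: aataaactttTTATTTATTacagcccaaa
PLK3 site, base 232: tggaccacttTTATTTATTgtcagacact
PLK3 site, base 250: tgtcagacacTTATTTATTgggatgtgag
With VX745 in ischemic culture the log2 fold changes of the 5 genes with the nonamer were −1.27 (GDF15), −0.36 (PLK2), −0.35 (PLK3), −0.29 (MDM2) and −0.01 (TP53INP1), and those of the 4 without it were 0.92 (GADD45B), 0.71 (GADD45A), −0.04 (BTG2) and −0.57 (BTG1). With MK25 the former were −0.10, −0.13, −0.74, −0.05 and 1.02 and the latter 0.99, −0.44, 0.20 and −0.56, in the same order. These values are set side by side with no test, and the stability of the RNAs was not measured.

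Of 40 other known targets of p53, 38 were tested. In untreated cells 6 rose and 1 fell in ischemic culture, beside 11.3% and 9.1% of all genes, with a median log2 fold change of 0.18 against −0.01 for all genes. The largest rises were those of BBC3 (2.36), a pro-apoptotic member of the BCL2 family, SESN2 (1.88), a brake on mTORC1, and APAF1 (1.77), the core of the apoptosome, and PANK1 (−1.19), an enzyme of coenzyme A synthesis, fell. With DMSO 6 rose and 1 fell, beside 9.03% and 8.11% of all genes, with a median of 0.06 against −0.01. CDKN1A, the inhibitor p21, was looked up after these values were seen, and had 0.91 in untreated cells, under the threshold, and 1.49 with DMSO, past it. VX745 in ischemic culture raised 2 of the 38, PANK1 (0.70) and PHLDA3 (0.62), and lowered SERTAD1 (−0.81), beside 4.35% of all genes that rose and 0.906% that fell. MK25 raised 3 and lowered 4, beside 7.02% and 2.65%, led by PANK1 (0.96) and NINJ1 (0.63) and by SESN2 (−1.57) and PMAIP1 (−1.10).

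Among 13 tested factors and kinases known to act on the 9 genes, 5 rose and 1 fell in untreated cells, beside 11.3% and 9.1% of all genes, with a median log2 fold change of 0.40. ATF4 rose by a log2 fold change of 1.54, DDIT3 by 2.12, ATF3 by 1.78, FOXO3 by 1.45 and the AU-rich element binding protein ZFP36 by 1.37, and FOXO1 fell (−1.37). With DMSO, beside 9.03% and 8.11% of all genes, the same 5 rose and FOXO1 fell, and EGR1 also rose (2.36), which in untreated cells had a value of 0.06 with a standard error of 0.53. VX745 in ischemic culture raised 0 of the 13 and lowered 1, DDIT3 (−0.90), beside 4.35% and 0.906% of all genes, with ATF4 at −0.35 (adjusted p = 0.000494 in limma). MK25 in ischemic culture raised 0 and lowered 2, EGR1 (−2.37) and ATF3 (−0.98), beside 7.02% and 2.65% of all genes, with ATF4 at −0.42 (adjusted p = 4.32e-05 in limma). In regular culture MK25 raised 0 and lowered 1, ZFP36 (−0.71), beside 1.88% and 0.606% of all genes.

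Of the relatives of the 9 genes, 7 of 10 were tested, and their log2 fold changes lay between −0.41 and 0.84 in the 4 comparisons of cultures, under the threshold. Thus 0 of the 7 rose or fell, beside the shares of all genes given next for the partners. TP53INP2 had 0.84 in untreated cells and 0.82 with DMSO, and MDM4 had 0.76 and 0.69. GADD45G, BTG4 and PLK5 had no row. Of the partners 16 of 18 were tested. In untreated cells 0 rose and 2 fell, beside 11.3% and 9.1% of all genes, and with DMSO 0 rose and 1 fell, beside 9.03% and 8.11%. With VX745 0 rose and 1 fell between the cultures, beside 9.28% and 5.21%, and with MK25 1 rose and 2 fell, beside 8.56% and 5.34%. PCNA, the replication clamp bound by GADD45 proteins, fell in untreated cells (−1.61) and with DMSO (−1.29), and PRMT1, bound by BTG proteins, fell in untreated cells (−1.02) and had −0.57 with DMSO. PCNA also fell with VX745 (−1.38) and with MK25 (−1.35). With MK25 PRMT1 fell (−1.04) and CNOT3, another partner, rose (1.03). FURIN, a protease that cleaves the GDF15 precursor, had −0.63 and −0.40, and the GDF15 receptor genes GFRAL and RET had no row.

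**Figure D4:**
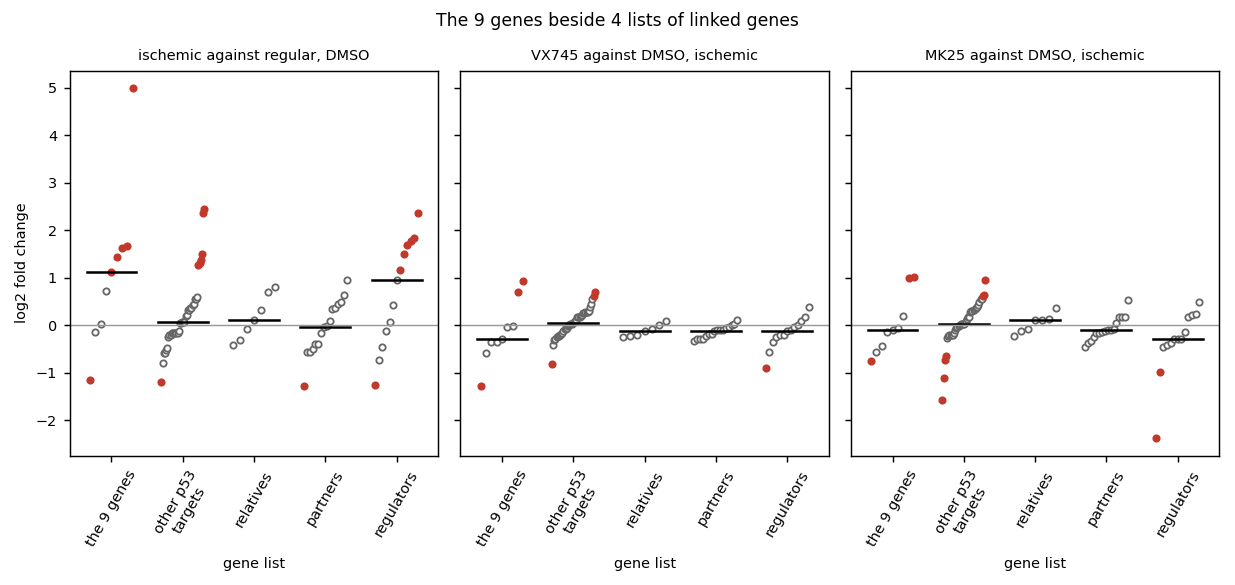
Log2 fold change (vertical axis) of the 9 genes and of the tested genes of 4 lists (horizontal axis) for ischemic against regular culture with DMSO and for VX745 and MK25 against DMSO in ischemic culture. Each point is a gene, filled red where it passed the threshold, and a black line marks the median. With DMSO the median of the 9 genes is 1.13 and that of the other p53 targets is 0.06. The 9 genes and the lists were chosen with earlier results of these data known, so this is no test.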

How the data were processed

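RNA from LN229 cells was sequenced in 16 libraries of 2 experiments, with 2 libraries per group. Reads were trimmed by the authors and aligned to GRCh38 with HISAT2 in Galaxy, and expression was compared with edgeR (both tools are named in the submitters' processing notes, without a version). The authors deposited log2 normalized CPM (read counts scaled to a common library size) per library. The program that counted the reads is not given in the sources used here. The libraries were made with SMART-Seq mRNA HT and Nextera XT kits, which do not mark strand. The experiments were normalized separately, so levels were never compared across them. The deposited log2 values were used with no further pseudocount or normalization. In each library 100% of the unlogged values lay close to a whole number of reads above a constant offset, which gave the reads per gene. The margin was 0.05 reads, or wider in proportion to the count for the largest counts. The methods describe no molecular identifiers, so reads are not independent molecules, and read numbers and the floor of 3 reads cover counting error only.

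Fold changes came from limma (version 3.58.1, R 4.3.3) with 1 mean per group, all groups of an experiment in 1 fit and a variance trend. The p-values are two-sided and, within a comparison, were adjusted over all genes (Benjamini-Hochberg). The test that the methods name takes counts and was not run, and the recovered reads were fitted with voom as an alternative. The script was tested on simulated data. There were 11 comparisons. The 9 genes and the 4 lists were chosen with earlier results of these data known, so their calls are described by counts and medians, with no test of a list. A gene of the lists is counted but not reported here.

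The rule for named genes took all 9 genes, the 3 largest rises and falls among called p53 targets in untreated cells, the 2 largest in each inhibitor comparison in ischemic culture, any relative, partner or regulator, and the 2 genes most correlated with each member. Symbols came from a table of Entrez identifiers (99.4% and 99.3% matched). Promoters came from RefSeq (GRCh38.p14), and positions, lengths and 3′ UTRs from GENCODE release 44 (GRCh38) in place of RefSeq transcripts. GADD45A had no promoter window in the table used. Windows on chromosome 8, where TP53INP1 lies, were left out, so the promoter of TP53INP1 is not described. Alternatives were libraries centred on their median, quantile normalization, a filter at a mean of 1 CPM, no variance trend, the replicate number as a block, voom on the recovered reads, only the groups compared, an unadjusted p, another fold threshold and each library left out in turn. Scaling to the total of reads on listed genes was added after seeing the data. Figures were made with Python 3.11.15 and matplotlib 3.10.9.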

Additional observations from a re-analysis of the deposited data

Results flagged for a closer look

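The effect of an inhibitor differed between the cultures, by the interaction term of the fit over all genes, for 4 of the 9 genes with each inhibitor. With VX745 the interaction (the effect in ischemic minus that in regular culture, log2 scale) was 0.67 for GADD45A, where the effects were 0.71 and 0.03, and 0.70 for GADD45B, where they were 0.92 and 0.23. It was −0.67 for GDF15, with effects of −1.27 and −0.60, and −0.39 for BTG1, with effects of −0.57 and −0.19. With MK25 it was 0.80 for GADD45B (effects of 0.99 and 0.18), −0.79 for GDF15 (−0.10 and 0.69), −0.83 for PLK3 (−0.74 and 0.08) and −0.88 for BTG1 (−0.56 and 0.32). The adjusted p in limma ranged from 8.6e-07 (BTG1, MK25) to 0.00532 (BTG1, VX745). Of all genes, 11.8% had such a call with VX745 and 24.4% with MK25. The interactions of both inhibitors share the DMSO libraries. Groups of 2 libraries were too small to look for single libraries far from the others.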

How the results depend on the processing

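The 99 values (9 genes in 11 comparisons) gave 1431 values under the alternatives, of which 1400 kept their call, 17 lost it and 14 gained it. No called value changed sign. The sign changed in 34 values that were not called and had adjusted p above 0.05 in limma as reported, 11 of them of TP53INP1 and 6 of BTG2.

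The number of genes called moved by more than 1.5 times in these cases. With the other fold change threshold it was 7 in place of 3 for ischemic against regular in untreated cells, 1 in place of 3 for VX745 and for MK25 against DMSO in ischemic culture, and 0 in place of 1 for both inhibitors in regular culture. For VX745 in regular culture it was also 0 without a variance trend, with voom and with only the groups compared, and it ranged from 0 to 1 when each library was left out. For MK25 in regular culture it ranged from 1 to 2. Without a variance trend the VX745 interaction had 2 genes in place of 4, as GADD45B and GDF15 had adjusted p of 0.055 and 0.0524. Where a library was left out, the lone library of its group was assumed to vary like the others.

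Scaling to the total of reads on listed genes put the median log2 fold change of all genes between cultures at −0.18 (untreated), −0.23 (DMSO), −0.10 (VX745) and −0.10 (MK25). As deposited, these medians were −0.01, −0.01, 0.01 and −0.01. Against DMSO in ischemic culture the scaling put the median at 0.12 (VX745) and 0.13 (MK25), beside 0.003 and −0.001 as deposited. It moved the share of rises among all calls between cultures from 55.3% to 40.4% (untreated), from 52.7% to 32.8% (DMSO), from 64.1% to 52.8% (VX745) and from 61.6% to 51.0% (MK25). In ischemic culture that share went from 82.8% to 93.8% (VX745) and from 72.6% to 88.2% (MK25), and in the interactions from 49.1% to 83.1% and from 42.9% to 72.5%. Of the 9 genes, the calls lost were those of PLK3 with DMSO (0.90) and of BTG1 with VX745 (0.95) between cultures.

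The labels do not say whether the replicate numbers pair the samples, and the values here cannot decide it. In the second experiment the numbers ending the deposited column names were taken as replicate numbers, which the labels do not state. Deviations of same-numbered libraries had correlations from −0.266 to 0.325 in the second experiment and 0.271 in the only pair of the first. With the replicate number as a block, 99 of 99 calls were as reported. Groups of 2 libraries and, for TP53INP1 and BTG2, few reads limit what is detectable.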
